A study of Mus musculus with 4 samples.

Results

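The elastic fibre and microfibril genes of the mouse testis were compared between testicular organoids (TOs) and testes in single-cell RNA sequencing data. They are 10 genes, chosen by name from 32285 genes in the count tables: Eln, Fbn1, Fbn2, Mfap2, Mfap5, Mfap4, Fbln1, Fbln2, Emilin1 and Mgp. The choice was made with earlier results of these data known. Shares and medians of the members beside those of all genes are therefore a description. TOs are small tissues that reform in culture from single cells of neonatal mouse testes. In the protocol of the methods they were embedded in extracellular matrix at first and later freed from it for further culture. The data hold 2 TO libraries and 2 libraries of testes from 28-day-old mice, with no genotype that separates them. Only the TOs were cultured, and the methods give a medium with serum replacement, testosterone, follicle-stimulating hormone and antioxidants. This culture and its additives cannot be told apart from the difference between TOs and testes. The design text gives the TOs an age of 28 days, while the protocol in the labels names day 21, and this difference could not be settled. All libraries came from unsorted cells released with collagenase and trypsin and were made with the 10x Genomics 3′ chemistry. According to the methods, the organoids came from 2 separate batches, while the number of animals in each testis library was not given, so p-values measure the spread between these libraries.

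Elastic fibres give tissues recoil. Their core is cross-linked elastin, the product of Eln, laid down on a scaffold of microfibrils. Microfibrils are polymers of the fibrillins (Fbn1, Fbn2) that carry the small glycoproteins encoded by Mfap2 and Mfap5 and that bind latent TGF-β complexes. Fibulins (Fbln1, Fbln2), the protein of Mfap4 and the emilin of Emilin1 join the core, the scaffold and the cell surface. Mgp encodes matrix Gla protein, an inhibitor of calcification that is found in elastic tissue. In the testis such fibres are known from the wall of the seminiferous tubule, where peritubular myoid cells lie, from vessel walls and from the interstitium.

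Fbln1 (GRCm38, chr15:85205949-85286535, plus strand) and Emilin1 (chr5:30913402-30921277, plus strand) were the members called higher in the stromal cells of TOs, so their promoter windows are shown. Each window runs from 250 bases before to 50 after a RefSeq transcript start (GRCm38.p6, plus strand for both genes). RefSeq windows were at hand for 5 of the 10 members. Capitals mark the GC box GGGCGG on either strand; the TATA box TATAAA was also searched on both strands.

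Fbln1, first start, chr15:85205699-85205998: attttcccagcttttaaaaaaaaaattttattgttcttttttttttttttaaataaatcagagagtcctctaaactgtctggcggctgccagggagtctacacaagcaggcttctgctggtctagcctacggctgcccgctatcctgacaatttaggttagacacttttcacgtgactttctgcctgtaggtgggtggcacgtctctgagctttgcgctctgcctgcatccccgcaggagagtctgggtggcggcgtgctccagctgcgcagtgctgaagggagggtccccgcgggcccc

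Fbln1, other start, chr15:85205758-85206057: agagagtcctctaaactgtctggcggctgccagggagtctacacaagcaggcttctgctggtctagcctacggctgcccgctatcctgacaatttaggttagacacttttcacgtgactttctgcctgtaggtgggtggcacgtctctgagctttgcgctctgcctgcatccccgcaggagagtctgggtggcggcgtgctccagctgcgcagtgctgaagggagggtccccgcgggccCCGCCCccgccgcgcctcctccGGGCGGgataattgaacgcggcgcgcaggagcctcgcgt

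Emilin1, chr5:30913536-30913835: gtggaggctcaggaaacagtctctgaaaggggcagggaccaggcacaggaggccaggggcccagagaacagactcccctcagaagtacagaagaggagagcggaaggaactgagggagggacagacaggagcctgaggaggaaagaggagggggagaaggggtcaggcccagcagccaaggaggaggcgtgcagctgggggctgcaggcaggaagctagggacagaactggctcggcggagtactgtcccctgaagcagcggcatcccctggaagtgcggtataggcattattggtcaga

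The windows of Fbln1 overlap, and both GC boxes of the other start run past the end of the first. GC made up 51.7% and 64.0% of the Fbln1 windows and 61.7% of the Emilin1 window, against a median of 52.7% over all windows. The GC box was found in 35.7% of 32851 windows of this length and the TATA box in 13.6%. Neither was found in the Emilin1 window, and the TATA box was in none of the 3 windows shown. These matches describe letters only.

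After filters, 9802 and 8713 cells of the TO libraries and 9867 and 9516 cells of the testis libraries remained, with medians of 2549 to 7561 unique molecular identifiers (UMIs) per cell. Library pairs shared 30 to 55 cell barcodes. Cells were clustered without the 10 members and the listed genes of their pathway, and clusters were named from marker genes. Stromal-like cells (Pdgfra, Dcn) numbered 2828 and 3187 in TOs and 585 and 410 in testes. Myoid-like cells (Acta2, Myh11) numbered 2371 and 1676 in TOs and 483 and 292 in testes. Levels are UMIs per 1000000 summed UMIs of the cells (CPM), and 10x 3′ counts are not scaled to gene length. Spermatid RNA was seen in the somatic sums of the testes: 9 spermatid markers summed to 4714 and 6526 CPM in testis stromal-like cells and to 2.06 and 3.61 CPM in those of TOs. The same markers summed to 4585 and 6453 CPM in testis myoid-like cells and to 2.35 and 4.26 CPM in TO ones. Their part in the results was not tested.

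**Figure D1:**
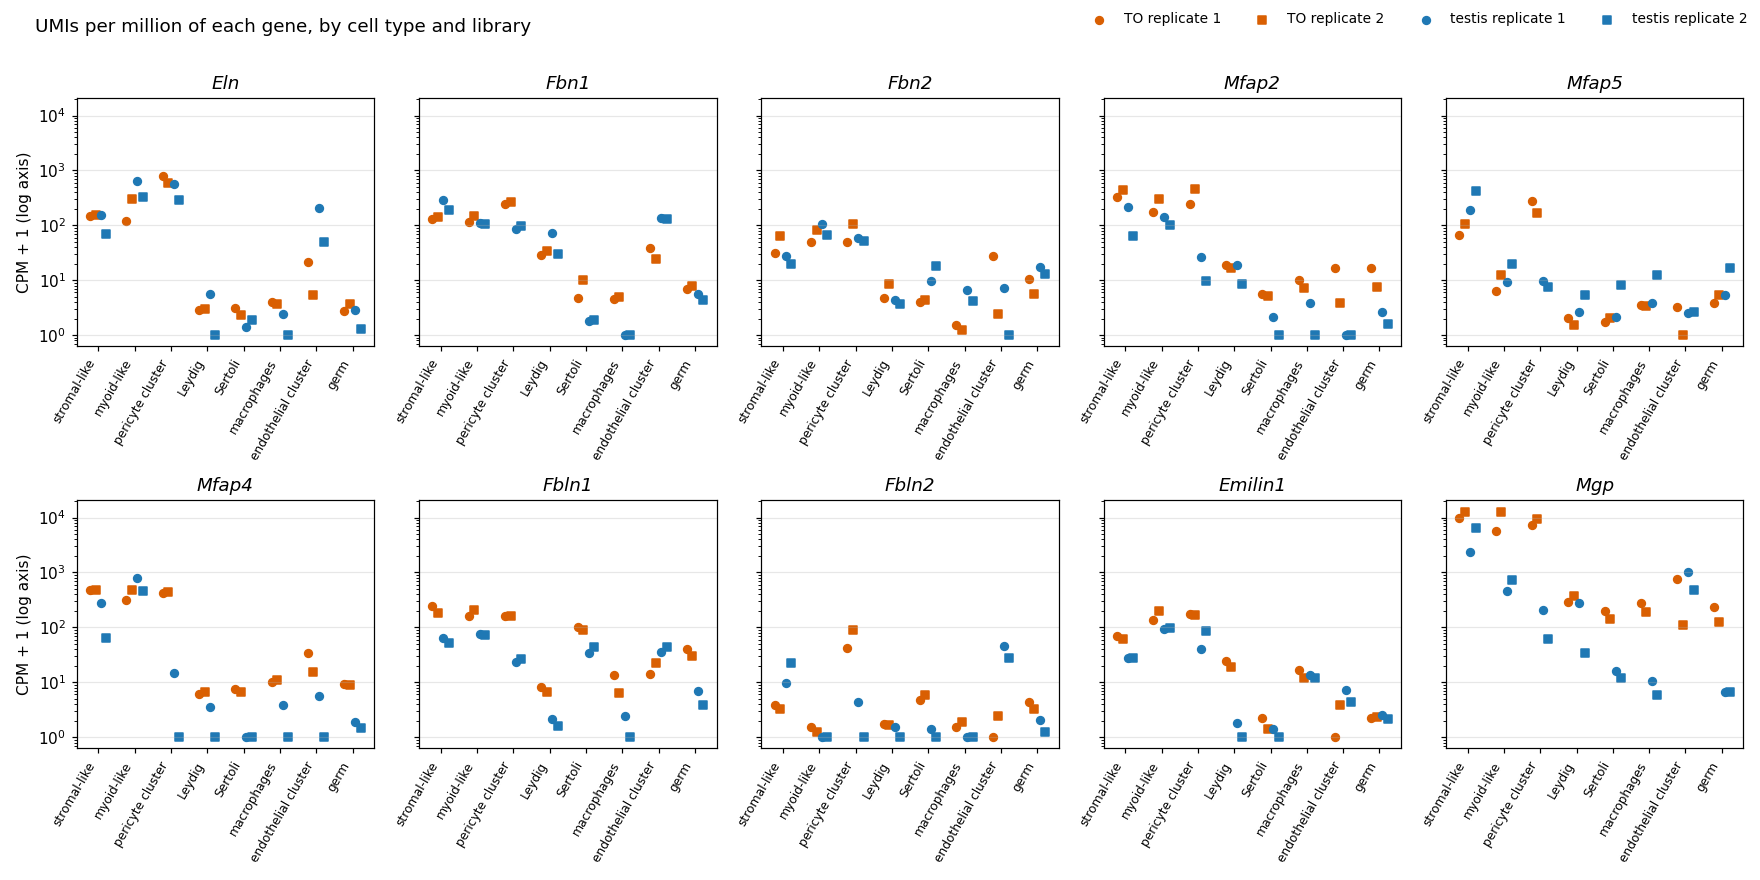
UMIs per 1000000 UMIs plus 1 on a log axis, for each of the 10 genes in 7 somatic groups of cells and in germ cells. Each point is 1 library (orange for TOs, blue for testes; circles for replicate 1, squares for replicate 2); Mgp in myoid-like cells lies at 5658 and 12849.8 CPM in TOs and at 467 and 726 CPM in testes.

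In stromal-like cells, Fbln1 and Emilin1 were higher in TOs than in testes, and no member was called lower. A call needed an adjusted p under 0.01, and with it a log2 fold change over 1 in either direction, by edgeR's quasi-likelihood test, with Benjamini-Hochberg adjustment over all genes tested. All 10 members were tested there. Of 15448 genes tested, 1.88% were called higher in TOs and 15.4% lower. At an unadjusted p below 0.05, 6 members were higher and 3 lower in edgeR, where 42.9% of all genes passed in either direction. DESeq2 called 3 members higher and 2 lower, and of all genes 3.17% higher and 18.9% lower. The members' median log2 fold change was 1.26, against 0.07 over all genes.

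In myoid-like cells, Fbln1 and Mgp were higher in TOs and no member was called lower. Fbln2 was too low there to be tested, which left 9 members. The background was 3.52% of 15057 genes called higher and 17.4% lower. In edgeR, 4 members were higher and 1 was lower at an unadjusted p below 0.05, a share near the 43.9% of all genes that passed in either direction. DESeq2 also called 2 members higher and none lower, and of all genes 3.45% higher and 18.5% lower. Their median log2 fold change was 0.22, against 0.08 over all genes.

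**Figure D2:**
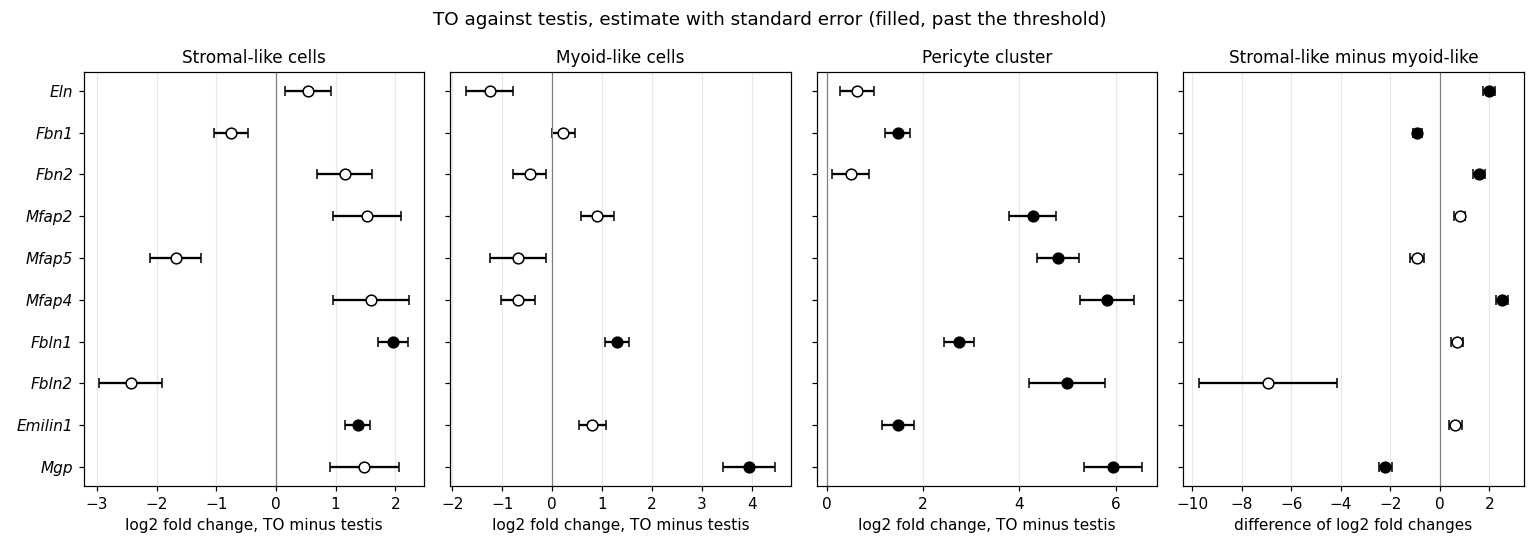
log2 fold change of TO against testis with its standard error for each member in stromal-like cells, myoid-like cells and the pericyte cluster, and, at the right, the difference between the stromal-like and the myoid-like fold changes. Filled circles passed the threshold; Fbln2 has no myoid-like value because it was not tested there, and Fbln1 is filled in the first 3 panels.

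The response of elastin itself differed between these cell types. Eln (chr5:134702593-134747323, minus strand) gave 121 and 299 CPM in the TO libraries and 648 and 332 CPM in the testis libraries in myoid-like cells, so both TO libraries were below both testis libraries. The fold change did not pass the threshold (log2 fold change -1.26 ± 0.48 (SE), edgeR adjusted p = 0.0741). In stromal-like cells Eln gave 149 and 152 CPM in the TO libraries and 151 and 69.3 CPM in the testis libraries, and the groups overlapped (log2 fold change 0.54 ± 0.38 (SE), edgeR adjusted p = 0.331). The difference between these responses was larger than its error. The log2 fold change was 1.99 ± 0.25 (SE) higher in stromal-like than in myoid-like cells, in a fit that kept the library as a block (edgeR adjusted p = 7.42e-07). Myoid markers were lower and stromal markers higher in TO than in testis myoid-like cells, with values given below for Mgp. The part of this marker shift in the Eln difference was not tested. In testes, myoid-like cells held more Eln than stromal-like cells in both libraries. In TO replicate 1 the order was reversed, with 121 CPM in myoid-like and 149 CPM in stromal-like cells, while TO replicate 2 kept it. Gm30003 overlaps Eln on the other strand.

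The responses of both fibrillins differed between the cell types. Fbn1 (chr2:125300594-125507993, minus strand), which encodes fibrillin-1, gave 127 and 138 CPM in the TO libraries and 287 and 189 CPM in the testis libraries in stromal-like cells. All TO values lay below the testis values, but the fold change missed the threshold (log2 fold change -0.75 ± 0.29 (SE), edgeR adjusted p = 0.0973). In myoid-like cells Fbn1 gave 113 and 144 CPM in the TO libraries and 112 and 104 CPM in the testis libraries, values that were close together (log2 fold change 0.22 ± 0.23 (SE), edgeR adjusted p = 0.494). Fbn2 encodes fibrillin-2, the fibrillin best known from development. In stromal-like cells it gave 30.2 and 63.2 CPM in the TO libraries and 26.4 and 19.1 CPM in the testis libraries, with both TO libraries above the testes (log2 fold change 1.15 ± 0.46 (SE), edgeR adjusted p = 0.107). In myoid-like cells the groups overlapped, at 48.4 and 79.5 CPM against 103 and 66.9 CPM in TO and testis libraries (log2 fold change -0.45 ± 0.33 (SE), edgeR adjusted p = 0.323).

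The responses of Fbn1 and Fbn2 in stromal-like cells differed from those in myoid-like cells in opposite directions. The difference of the log2 fold changes was -0.92 ± 0.18 (SE) for Fbn1 (edgeR adjusted p = 0.000638) and 1.59 ± 0.24 (SE) for Fbn2 (edgeR adjusted p = 2.01e-05). In testis germ cells Fbn2 gave 16.8 and 11.9 CPM, close to its level in testis stromal-like cells. It made 299% and 214% of the count of Mgp in these germ cells, against 1.12% and 0.296% in testis stromal-like cells. Whether the germ cell level is a background for Fbn2 was not tested. For Fbn1 the call was lost without testis replicate 1 (-0.64, edgeR adjusted p = 0.0737).

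The microfibril-associated glycoproteins were not called in stromal-like or myoid-like cells. Mfap2 (chr4:141010418-141015984, plus strand) encodes MAGP-1 and Mfap5 (chr6:122505845-122529290, plus strand) MAGP-2. Mfap2 gave 328 and 430.0 CPM in the TO libraries and 214 and 62.9 CPM in the testis libraries in stromal-like cells. Both TO libraries were above the testes, which were far apart from each other, and the fold change missed the threshold (log2 fold change 1.53 ± 0.57 (SE), edgeR adjusted p = 0.0908). In myoid-like cells it gave 171 and 297 CPM in the TO libraries and 142 and 102 CPM in the testis libraries, again without overlap and without a call (log2 fold change 0.90 ± 0.33 (SE), edgeR adjusted p = 0.0670).

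Mfap5 gave 66.9 and 107 CPM in the TO libraries and 187 and 426 CPM in the testis libraries in stromal-like cells. Every TO value lay below every testis value, but the fold change stayed short of the threshold in edgeR (log2 fold change -1.68 ± 0.43 (SE), edgeR adjusted p = 0.0292), while DESeq2 called it lower. In myoid-like cells Mfap5 was low in all libraries, at 5.24 and 11.5 CPM against 8.46 and 18.7 CPM (log2 fold change -0.68 ± 0.56 (SE), edgeR adjusted p = 0.380). Germ cells gave 2.86 and 4.39 CPM in TOs and 4.48 and 15.4 CPM in testes, and the myoid-like values were near these.

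Mfap4 (chr11:61485431-61488900, plus strand) encodes a glycoprotein that binds elastin and fibrillin. In stromal-like cells it gave 486 and 484 CPM in the TO libraries and 273 and 63.7 CPM in the testis libraries. The TO libraries were nearly equal, the testis libraries were far apart and lower, and the fold change missed the threshold (log2 fold change 1.59 ± 0.63 (SE), edgeR adjusted p = 0.107). In myoid-like cells the groups overlapped, at 319 and 469.7 CPM against 782 and 455 CPM (log2 fold change -0.69 ± 0.35 (SE), edgeR adjusted p = 0.163). As for Eln, the stromal-like fold change was above the myoid-like one, by 2.52 ± 0.24 (SE) on the log2 scale (edgeR adjusted p = 3.16e-09). The gene overlaps Mapk7 on the other strand.

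Fbln1, which encodes fibulin-1, was called higher in TOs in stromal-like, myoid-like and Sertoli cells and in the pericyte cluster. In stromal-like cells it gave 239.8 and 181 CPM in the TO libraries and 63.7 and 51.0 CPM in the testis libraries (log2 fold change 1.96 ± 0.25 (SE), edgeR adjusted p = 0.00222). In myoid-like cells it gave 160.3 and 204 CPM in the TO libraries and 73.8 and 70.9 CPM in the testis libraries (log2 fold change 1.30 ± 0.24 (SE), edgeR adjusted p = 0.00318). Neither pair of groups overlapped, and in each type the testis libraries were close together. The stromal-like call was kept in all 18 alternative fits, while the myoid-like call was lost without testis replicate 1, testis replicate 2 or TO replicate 2 (edgeR adjusted p of 0.0173, 0.0227 and 0.0162). Its responses in these types were not shown to differ (difference of log2 fold changes 0.70 ± 0.24 (SE), edgeR adjusted p = 0.0799).

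Fbln2 (chr6:91212455-91272540, plus strand) encodes fibulin-2. In stromal-like cells it was low and gave 2.92 and 2.23 CPM in the TO libraries and 8.78 and 21.5 CPM in the testis libraries, from 34 and 50 UMIs in TOs and 12 and 27 in testes. Both TO values lay below both testis values, and the threshold was missed in edgeR (log2 fold change -2.44 ± 0.52 (SE), edgeR adjusted p = 0.0157) but passed in DESeq2. TO germ cells gave 3.41 and 2.27 CPM, so the level in TO stromal-like cells was not above that of TO germ cells.

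Emilin1, which encodes an elastin-binding glycoprotein of the emilin family, gave 67.4 and 61.3 CPM in the TO libraries and 26.4 and 27.1 CPM in the testis libraries in stromal-like cells (log2 fold change 1.37 ± 0.21 (SE), edgeR adjusted p = 0.00428). The replicates of each group were within a few CPM of each other. The call was nevertheless lost without TO replicate 1, testis replicate 1 or testis replicate 2, with edgeR adjusted p of 0.0118, 0.0131 and 0.0112. In myoid-like cells it gave 133 and 202 CPM in the TO libraries and 92.3 and 96.5 CPM in the testis libraries, higher in both TO libraries and short of the threshold (log2 fold change 0.80 ± 0.27 (SE), edgeR adjusted p = 0.0505).

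Mgp (chr6:136872435-136875823, minus strand) showed the widest gap of any member in myoid-like cells. It gave 5658 and 12849.8 CPM in the TO libraries and 467 and 726 CPM in the testis libraries (log2 fold change 3.94 ± 0.53 (SE), edgeR adjusted p = 0.000518). In stromal-like cells it gave 9849 and 12481 CPM in the TO libraries and 2345 and 6466 CPM in the testis libraries. Both TO libraries were above the testes, whose values were far apart. No call was made in edgeR (log2 fold change 1.48 ± 0.58 (SE), edgeR adjusted p = 0.104), while DESeq2 called Mgp higher. The response was more positive in myoid-like cells, with a difference of the log2 fold changes of -2.20 ± 0.26 (SE) (edgeR adjusted p = 3.47e-07). In testes stromal-like cells held more Mgp than myoid-like cells in both libraries, and in TOs the levels came near each other, with TO replicate 2 at 12481 CPM in stromal-like and 12849.8 CPM in myoid-like cells. Stromal markers moved with this: 12 of them summed to 5409 and 7539.8 CPM in TO myoid-like cells and to 4314 and 4330.0 CPM in testis ones, while 10 myoid markers summed to 14906 and 10434 CPM and to 20912 and 21083 CPM. Their part in the result was not tested.

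Across the members, 5 of 10 responses differed between stromal-like and myoid-like cells: those of Eln, Fbn2 and Mfap4 were more positive in stromal-like cells, and those of Fbn1 and Mgp more positive in myoid-like cells. Over all 16526 genes tested, 2.35% had a more positive and 1.96% a more negative response in stromal-like cells at an adjusted p below 0.01. The call of Fbn1 was lost in 1 of 9 alternative fits, and the other 4 calls were kept in all 9. The shift of myoid and stromal markers in TO myoid-like cells applies to all 5 differences, and its part in them was not tested.

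The share of cells with at least 1 UMI, after each cell was thinned to 1500 UMIs, was compared next. Eln was seen in 14.1% (95% CI 12.7 to 15.6) and 25.8% (95% CI 23.7 to 27.9) of TO myoid-like cells and in 56.3% (95% CI 51.8 to 60.8) and 34.2% (95% CI 28.8 to 40.0) of testis ones, by exact binomial intervals that cover counting error only. Mgp was seen in 96.5% (95% CI 95.6 to 97.2) and 98.1% (95% CI 97.3 to 98.7) of TO myoid-like cells and in 49.5% (95% CI 44.9 to 54.0) and 59.2% (95% CI 53.4 to 64.9) of testis ones. In stromal-like cells most cells had Mgp in all libraries, from 86.5% to 97.7%. Fbln1 was seen in 28.0% and 22.1% of TO and 8.55% and 4.63% of testis stromal-like cells. Mfap5 was seen in 7.24% and 12.4% of TO and 20.9% and 42.9% of testis stromal-like cells.

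Germ cells served as the comparison type. A Mgp UMI was seen in 34.5% and 17.3% of the germ cells of TOs, against 1.37% and 0.704% in testes. For Eln the germ cell shares were 0.0880% to 0.520%. Fbln1 was seen in 5.93% and 3.85% of TO and 0.808% and 0.553% of testis germ cells. Fbn2 was seen in 2.97% and 2.17% of testis germ cells, close to the 4.10% and 2.68% of testis stromal-like cells. Before thinning, Eln was seen in 31.0% and 55.3% of TO and 73.3% and 61.3% of testis myoid-like cells, whose median depths were 4565 and 6488.5 UMIs in TOs and 2641 and 3481 UMIs in testes, against 7457.5, 8684.5, 2265 and 3082 UMIs in germ cells. Between 0 and 25 cells per library and type were too shallow for thinning among stromal-like and myoid-like cells, and 40 and 5 among TO germ cells.

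**Figure D3:**
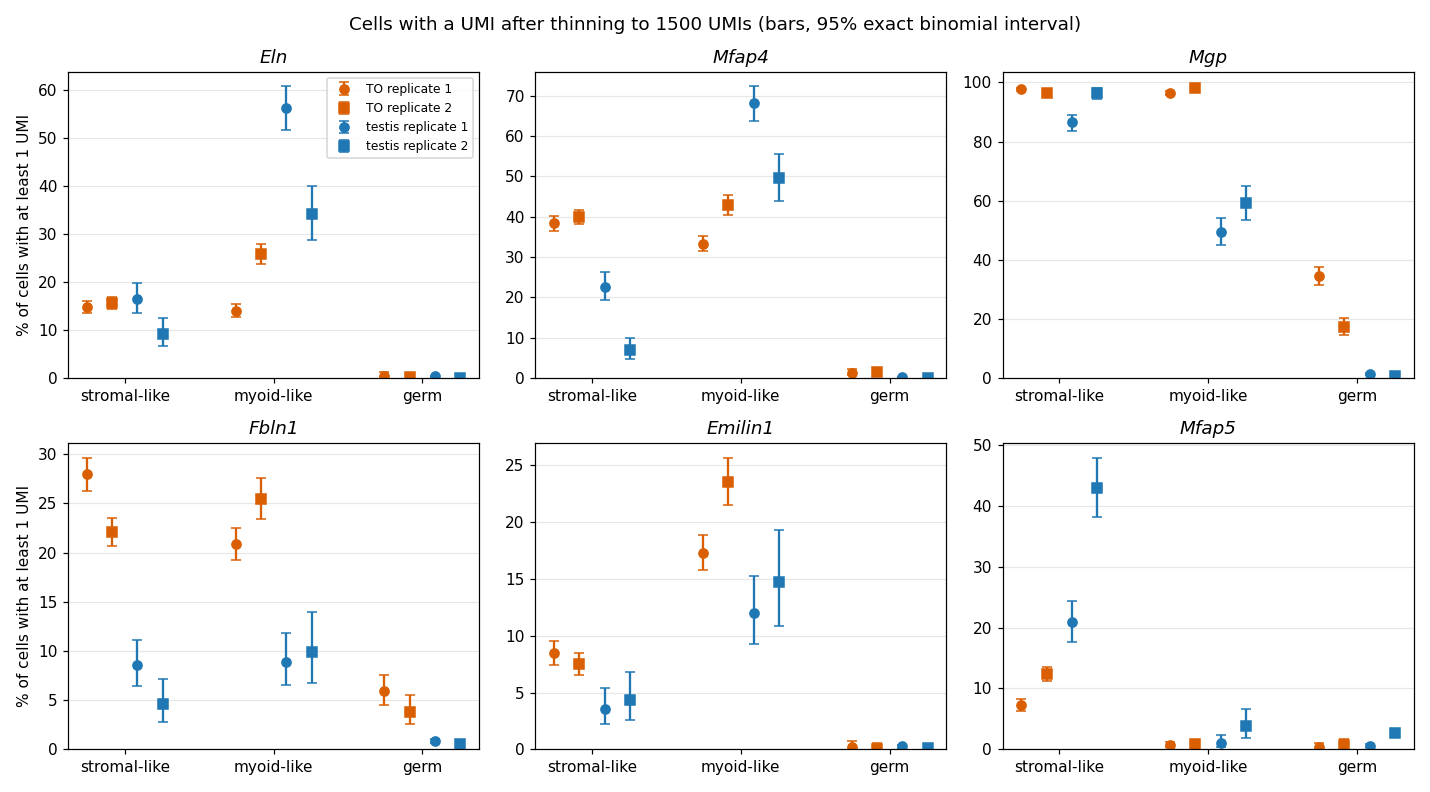
Percent of cells with at least 1 UMI of 6 members after thinning to 1500 UMIs per cell, with exact 95% binomial intervals, in stromal-like, myoid-like and germ cells of each library (orange for TOs, blue for testes). Fbln1 is above the testis values in both TO libraries, and Mfap5 is below them in stromal-like cells.

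The stromal-like cells formed 2 clusters that all libraries shared, led by Adam12 and by Clec3b. Fbln1 was called higher in TOs in both. In the Adam12 cluster it was the only member called (log2 fold change 1.86 ± 0.29 (SE), edgeR adjusted p = 0.00285), and at an unadjusted p below 0.05 in edgeR 2 members were higher and 3 lower (38% of all genes passed in either direction), against 1.51% of 13950 genes called higher and 14.2% lower. In the Clec3b cluster Fbln1 (log2 fold change 2.00 ± 0.27 (SE), edgeR adjusted p = 0.000977) and Emilin1 (log2 fold change 1.98 ± 0.28 (SE), edgeR adjusted p = 0.00108) were higher and Fbln2 was lower (log2 fold change -2.39 ± 0.52 (SE), edgeR adjusted p = 0.00971), against 2.06% of 13563 genes higher and 14.9% lower. Mfap4 in the Clec3b cluster gave 686 and 718 CPM in TOs and 279.8 and 76.8 CPM in testes, and in the Adam12 cluster 296, 281, 268 and 50.8 CPM in the same order. Mfap5, a leading gene of the Clec3b cluster, was lower in TO than in testis libraries in both clusters, without a call (log2 fold change -2.39 ± 0.51 (SE), edgeR adjusted p = 0.0124 in the Adam12 cluster). The single clusters were tested after the data had been seen.

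The clusters that are neither Sertoli, Leydig, macrophage, endothelial nor germ cells were also summed together as other somatic cells. Fbln1 was the only member called there, at 200.2 and 188 CPM in the TO libraries and 60.3 and 54.0 CPM in the testis libraries (log2 fold change 1.86 ± 0.20 (SE), edgeR adjusted p = 0.000552), and that call was kept in all 18 alternative fits. Of 17258 genes, 2.8% were called higher and 19.4% lower; at an unadjusted p below 0.05, 4 members were higher and 1 lower, against 48.2% of all genes in either direction. DESeq2 called 3 members higher and none lower, and of all genes 3.89% higher and 22% lower. Emilin1 had a small adjusted p but a fold change under the threshold (log2 fold change 0.95 ± 0.19 (SE), edgeR adjusted p = 0.00851). Mfap2 (log2 fold change 1.64 ± 0.43 (SE), edgeR adjusted p = 0.0241) and Mgp (log2 fold change 2.33 ± 0.62 (SE), edgeR adjusted p = 0.0243) were higher in both TO libraries without a call in edgeR. DESeq2 called both higher. Eln was not called (log2 fold change -0.71 ± 0.40 (SE), edgeR adjusted p = 0.197). Of the other somatic cells, the pericyte cluster made up 65 of 5264 and 81 of 4944 in TOs. In testes it made up 217 of 1285 and 145 of 847. The part of this make-up in the pooled fold changes was not tested.

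Beyond the mural and stromal cells, Fbln1 was also called higher in Sertoli cells, the nurse cells of the tubule. It gave 101 and 88.9 CPM in the TO libraries and 33.0 and 42.0 CPM in the testis libraries (log2 fold change 1.47 ± 0.19 (SE), edgeR adjusted p = 0.00114), kept in all 18 alternative fits. In TO Sertoli cells Fbln1 made 51.3% and 62.9% of the count of Mgp, against 4.52% and 2.87% in macrophages and up to 23.4% in germ cells of the same libraries. In testes it made 224% and 392% in Sertoli cells and 104% and 51.9% in germ cells. The part of RNA from other cells in the call was not tested. Testis replicate 2 held 100 of its 137 Sertoli cells in a cluster that no other library had. In the cluster with most Sertoli cells of the other libraries, Fbln1 gave 115 and 99.5 CPM in TOs and 37.5 and 18.3 CPM in testes, the last from 25 cells.

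Mgp (log2 fold change 3.76 ± 0.26 (SE), edgeR adjusted p = 0.000140) and Mfap4 (edgeR adjusted p = 0.00396) were called in Sertoli cells as well. The background was 7.57% of 14187 genes higher and 18.1% lower, 7 members were tested, and 6 were higher and 1 lower at an unadjusted p below 0.05, which 52% of all genes passed in either direction. DESeq2 called 3 members higher and none lower, and of all genes 7.51% higher and 18.5% lower. Mgp gave 197 and 141 CPM in the TO libraries and 14.7 and 10.7 CPM in the testis libraries, and germ cells of the same libraries gave 236, 126, 5.60 and 5.59 CPM. Mfap4 gave 6.65 and 5.56 CPM in TOs and no UMI in testes, which is at least 7.73-fold higher in TOs when 3 counts over both testis sums are taken as the floor. TO germ cells gave 8.32 and 7.80 CPM of Mfap4. Both calls in Sertoli cells were thus at levels found in TO germ cells, and when genes far more abundant in other cells were left out, Fbln1 was the only member called. The Mfap4 call was also lost without testis replicate 1 (edgeR adjusted p = 0.0173) and without doublet removal (log2 fold change 1.68, edgeR adjusted p = 0.0357), so the absence of testis UMIs depended on that filter.

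In Leydig cells, the androgen-producing cells of the interstitium, Emilin1 was called higher. It gave 22.9 and 18.4 CPM in the TO libraries and 0.832 and 0 CPM in the testis libraries, from 419 and 344 UMIs in TOs and 3 and 0 in testes. The ratio of the summed levels was 48.2 (95% interval 16.4 to 234, exact and for counting error only), and the edgeR adjusted p was 0.00179. TO germ cells gave 1.23 and 1.30 CPM and TO Sertoli cells 1.21 and 0.407 CPM, below the TO Leydig level. The call was lost with no count filter (edgeR adjusted p = 0.0288), a fit in which no gene of 24563 was called. Emilin1 was not among the genes tested when genes far more abundant in other cells were left out. Of the TO Leydig cells, 286 and 310 lay in a cluster with 5 and 9 testis cells and 53 and 47 in a cluster with none. In the cluster that held most Leydig cells of every library, Emilin1 gave 25.9 and 22.9 CPM in TOs and 0.835 and 0 CPM in testes. Of 15475 genes, 2.02% were called higher and 12.1% lower. Among the 9 members tested there, 2 were higher and 1 was lower at an unadjusted p below 0.05, a share near the 35.9% of all genes in either direction. DESeq2 called 2 members higher and none lower, and of all genes 3.82% higher and 14.8% lower.

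Fbln1 in Leydig cells gave 7.23 and 5.60 CPM in the TO libraries and 1.11 and 0.588 CPM in the testis libraries, without overlap. The fold change stayed short of the threshold in edgeR (log2 fold change 2.82 ± 0.60 (SE), edgeR adjusted p = 0.0128), while DESeq2 called the gene higher. Its levels in TO Leydig cells were below the 40.2 and 29.4 CPM of TO germ cells. Mgp gave 288 and 378 CPM in the TO libraries and 278 and 33.2 CPM in the testis libraries, and testis replicate 1 was close to the TO libraries (log2 fold change 1.06 ± 0.77 (SE), edgeR adjusted p = 0.368). Eln was at or under 4.71 CPM in Leydig cells of every library. The Emilin1 response in stromal-like cells differed from that in Leydig cells by -4.31 ± 0.64 (SE) on the log2 scale (edgeR adjusted p = 0.00766), the only member called in that comparison, against 0.8% of 17119 genes with a more positive and 1.55% with a more negative response in stromal-like cells. At an unadjusted p below 0.05 in edgeR, 1 member was more positive and 3 were more negative, against 26.6% of all genes in either direction. The Emilin1 call was lost in 5 of 9 alternative fits, among them those without testis replicate 1 (-9.66, edgeR adjusted p = 0.0456) and without testis replicate 2 (-3.38, edgeR adjusted p = 0.0566).

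In macrophages 3 members were abundant enough to test, and Mgp was called higher in TOs, at 279 and 187 CPM in the TO libraries and 9.74 and 4.81 CPM in the testis libraries (log2 fold change 5.12 ± 0.43 (SE), edgeR adjusted p = 9.15e-06). Germ cells of the same libraries gave similar levels, 236 and 126 CPM in TOs and 5.60 and 5.59 CPM in testes. The background was 3.06% of 10805 genes higher and 16.3% lower; 2 members were higher and none lower at an unadjusted p below 0.05, which 36.3% of all genes passed in either direction. DESeq2 called 1 member higher and none lower, and of all genes 2.68% higher and 15.2% lower. Emilin1 in macrophages was similar across libraries, at 15.6 and 11.2 CPM against 12.5 and 11.2 CPM (log2 fold change 0.31 ± 0.49 (SE), edgeR adjusted p = 0.700), and in testes it lay above the germ cells' 1.52 and 1.12 CPM.

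The cluster named for pericytes, the contractile cells around small vessels, gave the most calls: 8 of 10 members were higher in TOs, against 8.38% of 8952 genes higher and 19.1% lower. It was tested after the data had been seen. Its TO cells (65 and 81) and testis cells (217 and 145) went apart in their markers. Rgs5 gave 0 and 9.25 CPM in the TO libraries and 974 and 1496 CPM in the testis libraries, and the 6 pericyte markers summed to 107 and 236 CPM in TOs and 1960.5 and 2968 CPM in testes. The 12 stromal markers moved the other way, from 1262 and 1564 CPM in testes to 12348 and 15301 CPM in TOs. The TO cells are therefore called by the cluster and not as pericytes, and the part of this in the calls was not tested. On a scale up to 1, the whole cluster scored 0.98 for pericyte and 0.83 for myoid and smooth muscle markers. Pericytes and smooth muscle cells of vessels were thus not told apart in it, in testes either.

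**Figure D4:**
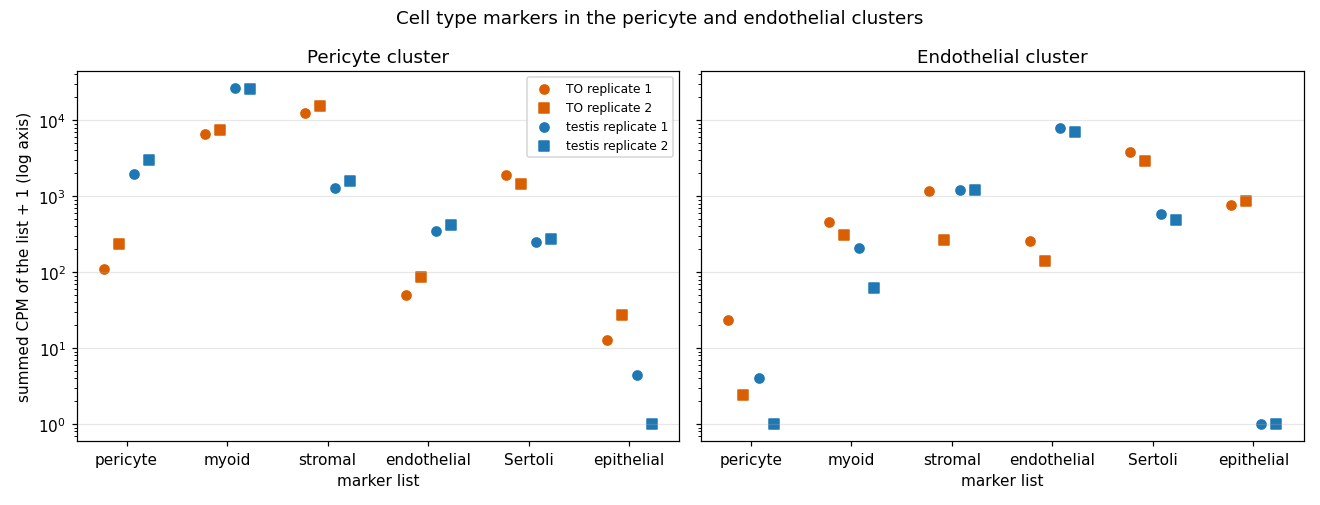
Summed UMIs per 1000000 UMIs plus 1 of 6 marker lists on a log axis in the pericyte cluster (left) and the endothelial cluster (right), 1 point per library (orange for TOs, blue for testes). The TO cells of the pericyte cluster lie below the testis cells in pericyte markers and above them in stromal markers, and those of the endothelial cluster lie below in endothelial and above in Sertoli and epithelial markers.

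Within the pericyte cluster, Mgp gave 7474 and 9439 CPM in the TO libraries and 207 and 59.8 CPM in the testis libraries (log2 fold change 5.94 ± 0.59 (SE), edgeR adjusted p = 3.08e-05). Mfap4 gave 428 and 449 CPM in the TO libraries and 13.7 and 0 CPM in the testis libraries (log2 fold change 5.81 ± 0.57 (SE), edgeR adjusted p = 2.68e-05). Mfap5, whose TO values lay below the testis values in stromal-like cells, was called higher here, at 272 and 169 CPM against 8.56 and 6.41 CPM (log2 fold change 4.80 ± 0.43 (SE), edgeR adjusted p = 1.78e-05). Mfap2 and Fbln1 were also called (log2 fold change 4.27 ± 0.49 (SE), edgeR adjusted p = 6.20e-05, and log2 fold change 2.75 ± 0.31 (SE), edgeR adjusted p = 6.08e-05). Fbn1 (log2 fold change 1.48 ± 0.26 (SE), edgeR adjusted p = 0.000927) and Emilin1 (log2 fold change 1.48 ± 0.34 (SE), edgeR adjusted p = 0.00479) had smaller fold changes, and the call of Emilin1 was lost in 4 of 17 alternative fits, with DESeq2 (DESeq2 adjusted p = 0.0171), without doublet removal (edgeR adjusted p = 0.0152), without upper limits on genes and UMIs (edgeR adjusted p = 0.0225) and without testis replicate 1 (edgeR adjusted p = 0.0324). Fbln2 rested on 2 UMIs in testes and 88 in TOs, a ratio of levels of 36.7 (95% interval 9.87 to 308, exact and for counting error only).

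Eln and Fbn2 were the members without a call in the pericyte cluster. Eln gave 788 and 589 CPM in the TO libraries and 577 and 288 CPM in the testis libraries, high in every library and with both TO values above both testis values (log2 fold change 0.64 ± 0.36 (SE), edgeR adjusted p = 0.188). Fbn2 overlapped, at 49.7 and 103 CPM against 58.2 and 51.3 CPM (log2 fold change 0.50 ± 0.38 (SE), edgeR adjusted p = 0.344). In edgeR no member was lower at an unadjusted p below 0.05 and 8 were higher, and 46.3% of all genes passed in either direction. DESeq2 called 7 members higher and none lower, and of all genes 5.41% higher and 15% lower.

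The endothelial cluster held unlike cells in the groups as well. Pecam1, Cldn5 and Flt1 had no UMI in its TO cells (67 and 79), while the testis cells (132 and 87) gave 3193 and 3227 CPM of Cldn5. Of 10 endothelial markers, 4 and 6 were at 0 in the TO sums. Pax8, an epithelial marker, gave 441 and 546 CPM in the TO libraries and 0 and 0 CPM in the testis libraries. Its values are thus those of testis endothelial cells set against other cells of TOs: Eln gave 20.1 and 4.29 CPM against 206 and 49.1 CPM, Fbn1 38.0 and 22.9 CPM against 136 and 127 CPM and Fbln2 0 and 1.43 CPM against 44.2 and 27.1 CPM. These 3 members were called lower (log2 fold change -3.70 ± 0.74 (SE), edgeR adjusted p = 0.00206 for Eln, and Fbln2 lost the call without testis replicate 1, edgeR adjusted p = 0.0129), against 16.9% of 9368 genes lower and 12.3% higher, with 5 members tested. At an unadjusted p below 0.05, which 47% of all genes passed in either direction, no member was higher and 4 were lower. DESeq2 called no member higher and 2 lower, without Eln, and of all genes 8.96% higher and 13.1% lower.

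The order of the cell types is given for Eln and Mgp. In testes, Eln was highest in myoid-like cells and the pericyte cluster, whose ranges overlapped (648 and 332 against 577 and 288 CPM), followed by endothelial cells (206 and 49.1 CPM) and stromal-like cells (151 and 69.3 CPM), which also overlapped. Leydig cells, Sertoli cells and macrophages held at most 4.71 CPM. In TOs, the pericyte cluster led with 788 and 589 CPM, above myoid-like and stromal-like cells, whose ranges overlapped. Mgp in testes was highest in stromal-like cells, above the overlapping ranges of endothelial and myoid-like cells. In TOs the range of Mgp in myoid-like cells overlapped those of stromal-like cells and of the pericyte cluster.

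As a description, the genes most like Eln over the 28 sums of 7 somatic types and 4 libraries, by Pearson's correlation of log2(CPM + 1), were Pdlim7 (r = 0.96), Itga1 (r = 0.95), Foxs1 (r = 0.95), Tril (r = 0.94), Col4a2 (r = 0.93). For Mgp they were Cygb (r = 0.92), Mmp2 (r = 0.89), Osmr (r = 0.89), Ltbp4 (r = 0.89), Col13a1 (r = 0.88). Among the members, Fbn1 was nearest to Eln (r = 0.83) and Mfap4 to Mgp (r = 0.83). The points share libraries, depth and free RNA.

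Of 37 other genes of elastic fibre assembly, turnover and TGF-β storage, also listed with earlier results known, 30 were tested in stromal-like cells. Of these, 3 were called higher and 2 lower in TOs, against 1.88% and 15.4% of all genes. Their median log2 fold change was 0.22, against 0.07 over all genes. Ctsk encodes cathepsin K, a protease that can degrade elastin, and rose from 0.732 and 0.797 CPM in testes to 49.8 and 62.3 CPM in TOs (ratio 76.0, 95% counting interval 21.0 to 628, edgeR adjusted p = 0.000451). Lox, the lysyl oxidase that cross-links elastin and collagen, rose from 3.66 and 2.39 to 21.2 and 27.6 CPM (log2 fold change 3.11 ± 0.44 (SE), edgeR adjusted p = 0.00333). Fbln7, another fibulin, was also higher (log2 fold change 1.98 ± 0.37 (SE), edgeR adjusted p = 0.00901). Ltbp1, which ties latent TGF-β to microfibrils, fell from 223 and 241 to 74.8 and 70.2 CPM (log2 fold change -1.57 ± 0.19 (SE), edgeR adjusted p = 0.00189), and Emilin2 fell (log2 fold change -5.58 ± 0.71 (SE), edgeR adjusted p = 0.00217).

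In myoid-like cells 29 of the 37 genes were tested, and 3 were higher and 4 lower, against 3.52% and 17.4% of all genes. The median log2 fold change of the 29 was 0.23, against 0.08 over all genes. Efemp1, which encodes fibulin-3, rose from 0.769 and 9.84 to 186 and 155 CPM (log2 fold change 5.10 ± 0.53 (SE), edgeR adjusted p = 0.000124). Mmp2, a gelatinase, and Ctsk rose as well (log2 fold change 3.84 ± 0.34 (SE), edgeR adjusted p = 5.58e-05, and log2 fold change 2.29 ± 0.42 (SE), edgeR adjusted p = 0.00315). Fbln5, which brings elastin onto microfibrils and is named here after its values were seen, fell from 301 and 399.6 to 143 and 169.6 CPM (log2 fold change -1.19 ± 0.24 (SE), edgeR adjusted p = 0.00551). Adamts17, Ltbp2 and Ltbp1 had log2 fold changes of -4.22 ± 0.73 (SE), -2.01 ± 0.36 (SE) and -1.21 ± 0.21 (SE), with edgeR adjusted p of 0.00215, 0.00255 and 0.00218. Ltbp1 was thus lower in TOs in both types. Of the responses that differed between the types, those of Ctsk (4.04 ± 0.71 (SE), edgeR adjusted p = 0.000154), Adamts17 (3.59 ± 0.78 (SE), edgeR adjusted p = 0.00222) and Lox (3.39 ± 0.51 (SE), edgeR adjusted p = 1.48e-05) were the most positive in stromal-like cells. Those of Efemp1 (-4.68 ± 0.35 (SE), edgeR adjusted p = 2.73e-11), Loxl2 (-4.36 ± 0.89 (SE), edgeR adjusted p = 0.00107) and Mmp2 (-2.35 ± 0.53 (SE), edgeR adjusted p = 0.00333) were the most negative. The calls of Lox and Efemp1 were kept in all 9 alternative fits. Those of Ctsk and Loxl2 were each lost in 1, and those of Adamts17 and Mmp2 each in 3.

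In the pericyte cluster 22 were tested, and 13 were higher and 1 lower, against 8.38% and 19.1% of all genes. The increases were led by Ctsk (ratio 97.7, 95% counting interval 17.2 to 3891, edgeR adjusted p = 4.79e-05), Mmp2 (log2 fold change 5.90 ± 0.90 (SE), edgeR adjusted p = 0.000371) and Efemp1 (ratio 47.2, 95% counting interval 12.8 to 394, edgeR adjusted p = 9.19e-05). Thsd4, a microfibril-binding ADAMTS-like gene, was lower (log2 fold change -4.08 ± 0.30 (SE), edgeR adjusted p = 6.87e-06). In Sertoli cells 17 were tested, and 6 were higher and 1 lower, against 7.57% and 18.1% of all genes. By fitted fold the largest increases were those of Tgfb2, a TGF-β ligand (53.4 and 41.7 CPM against 0.388 and 0 CPM, ratio 182, 95% counting interval 32.7 to 7208, edgeR adjusted p = 0.000148), Adamts10 (4.29 and 5.16 CPM against no UMI, at least 5.65-fold against a floor of 3 counts over the group, edgeR adjusted p = 0.00674) and Ltbp3 (16.4 and 20.6 CPM against 0.388 and 0 CPM, ratio 66.1, 95% counting interval 11.8 to 2617, edgeR adjusted p = 0.000673), and Tgfb1 was lower (log2 fold change -1.35 ± 0.20 (SE), edgeR adjusted p = 0.00207). These increases rest on at most 1 testis UMI each, and their order is not settled by the counts. Efemp1, named after its values were seen, was higher as well (ratio 35.6, 95% counting interval 12.1 to 173, edgeR adjusted p = 0.000538). Efemp1 was also a leading gene of the Adam12 stromal-like cluster. The part of RNA from other cells in these Sertoli calls was not tested. In Leydig cells 27 were tested, and 4 were higher and none lower, against 2.02% and 12.1% of all genes. Those higher were Ctsk (ratio 112, 95% counting interval 19.9 to 4412, edgeR adjusted p = 0.00135), Fbln5 (log2 fold change 2.96 ± 0.35 (SE), edgeR adjusted p = 0.00132), Bmp2 (log2 fold change 2.49 ± 0.48 (SE), edgeR adjusted p = 0.00824) and Loxl2 (log2 fold change 1.44 ± 0.28 (SE), edgeR adjusted p = 0.00929). The calls of Bmp2 and of Loxl2 were each lost in 9 of 18 alternative fits.

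In macrophages 12 of the listed genes were tested, and 2 were higher and 1 lower, against 3.06% and 16.3% of all genes. Mmp12, the macrophage elastase, was higher (567 and 221 CPM against 13.9 and 0 CPM, edgeR adjusted p = 0.000142). Ltbp4 was higher as well, from 89 UMIs in TOs and 1 in testes (ratio 18.5, 95% counting interval 3.24 to 739.6, edgeR adjusted p = 0.00576). Fbln5 was lower (log2 fold change -3.28 ± 0.55 (SE), edgeR adjusted p = 0.000931). The calls of Mmp12, Ltbp4 and Fbln5 were lost in 1 of 18, 3 of 15 and 3 of 17 alternative fits. The part of RNA from other cells in the Ltbp4 call was not tested. In the endothelial cluster 15 were tested, and 4 were higher and 5 lower, against 12.3% and 16.9% of all genes. The 3 largest increases were those of Efemp1, Tgfb3 and Ltbp1 (edgeR adjusted p of 8.46e-05, 0.00106 and 0.00231). The 3 largest decreases were those of Mmrn2, an endothelial gene of the emilin family with no UMI in TOs and 381 and 272 CPM in testes, Fbln5 (ratio 24.8, 95% counting interval 6.54 to 210.0, edgeR adjusted p = 0.000194) and Ltbp4 (log2 fold change -3.12 ± 0.54 (SE), edgeR adjusted p = 0.000875). In the other somatic cells 31 were tested, and 4 were higher and 5 lower, against 2.8% and 19.4% of all genes. Ctss, a cathepsin gene of phagocytes (5.30 and 3.57 CPM against 0 and 0 CPM, at least 8.51-fold against a floor of 3 counts over the group, edgeR adjusted p = 0.00518), Ctsk (log2 fold change 3.78 ± 0.40 (SE), edgeR adjusted p = 0.000527) and Mmp2 (log2 fold change 2.57 ± 0.24 (SE), edgeR adjusted p = 0.000335) had the largest increases. Ctss was also a leading gene of the macrophage cluster, which held 270 and 695 TO cells and 232 and 148 testis cells. The part of macrophage RNA in its call was not tested. Emilin2 (log2 fold change -4.40 ± 0.61 (SE), edgeR adjusted p = 0.00157), Adamts17 (log2 fold change -3.12 ± 0.57 (SE), edgeR adjusted p = 0.00514) and Thsd4 (log2 fold change -2.84 ± 0.22 (SE), edgeR adjusted p = 0.000166) had the largest decreases. Thsd4 was also lower in the pericyte cluster, which made up a larger share of these pooled cells in testes. The part of this in the pooled calls was not tested.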

How the data were processed

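Count tables of 2 TO and 2 testis libraries were used. The authors made the deposited counts of UMIs per gene and cell barcode with Cell Ranger 7.1.0 on mm10, per the labels' processing notes; these were filtered barcodes, 11826 to 14643 per library with 74988295 to 119966959 UMIs. The 10 members and the pathway list were chosen with earlier results of these data known.

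Scrublet scores were computed with scanpy 1.11.5 in Python 3.11.15, and the highest-scoring 9.46 to 11.7% of barcodes per library were removed as doublets, in place of the doublet caller named in the methods. Barcodes outside 1000 to 5000 detected genes, above 20000 UMIs or with over 10% of their UMIs from mitochondrial genes were dropped. Counts were scaled to 10000 and log-transformed, 2000 variable genes (without the members and listed genes) gave 30 components, libraries were aligned with a Harmony routine written for this work, and cells were clustered (Leiden, 20 neighbours, resolution 1). Clusters were named from fixed marker lists, and the names are rebuilt, not those of the study.

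UMIs were summed per library and type and tested with edgeR 4.0.16 (R 4.3.3; TMM, filterByExpr, quasi-likelihood F test). The test was tested on simulated data. Responses were compared between types in an interaction fit with the library as a block, at an adjusted p below 0.01. Alternatives were DESeq2 1.42.0, RLE factors, other filters and thresholds, the replicate block, each library left out and other cell settings. All members are named; of the other pathway genes, those called, or the 3 largest changes in each direction where more than 6 were called; and the 5 genes most correlated with Eln and with Mgp. The pericyte cluster and the single stromal-like clusters were tested after the data had been seen.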

Additional observations from a re-analysis of the deposited data

Results flagged for a closer look

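The effect of TO against testis differed between stromal-like and myoid-like cells for 5 members in edgeR's test of the difference itself. The difference of the log2 fold changes, stromal-like minus myoid-like, was 1.99 for Eln, 1.59 for Fbn2 and 2.52 for Mfap4, so these responses were more positive in stromal-like cells. It was -0.92 for Fbn1 and -2.20 for Mgp. The part of the marker shift of TO myoid-like cells in these differences was not tested. Between stromal-like and Leydig cells, the difference was -4.31 for Emilin1, whose level in testis Leydig cells rested on 3 UMIs. With 2 libraries per group, no group was large enough to look for single libraries that stand apart.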

How the results depend on the processing

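Of 1267 recomputed values of 83 member results, 1137 kept their direction and their side of the threshold, 21 lost a call, 90 gained one and 19 uncalled values changed sign; of 1089 for other pathway genes, 1009 were kept and 80 lost a call. The number of members called in stromal-like cells was 5 with DESeq2, 8 with no count filter and 4 at an adjusted p below 0.05 without a fold threshold. In myoid-like cells it was 4 with no count filter. In other somatic cells it was 3 with DESeq2, 4 with no count filter and 4 at the looser threshold. In Leydig cells it was 2 with DESeq2, 0 with no count filter, 2 at the looser threshold, 0 when genes high in other cells were left out and 2 without doublet removal. With no count filter no gene at all was called in Leydig cells, of 24563 tested. Over all genes, 938 were higher and 2770 lower of 15475 at the looser threshold. With genes high in other cells left out it was 33 and 81 of 12210, and without doublet removal 380 and 2302 of 16221. In Sertoli cells the number of members called was 7 with no count filter, 7 at the looser threshold and 1 with genes high in other cells left out. Over all genes these settings gave 2104 higher and 3542 lower of 23940, 2697 and 3540 of 14187, and 761 and 1796 of 12434. In macrophages these settings called 3, 2 and 0 members, and 2 were called without doublet removal. Over all genes they gave 828 higher and 2309 lower of 21104, 756 and 2128 of 10805, and 246 and 1297 of 9904. Without doublet removal it was 425 and 2090 of 12227. For the stromal-like against Leydig difference the number of members called was 0 with RLE size factors, 0 without Harmony and 0 at resolution 2. There the median of all genes was -0.28 under TMM and -0.06 under RLE. Of 17119 genes, 160 were called more positive and 144 more negative under RLE, against 137 and 266 under TMM. It was 151 and 279 of 17217 without Harmony and 88 and 157 of 17231 at resolution 2. Calls over all genes, higher and lower, moved in the other types too. With no count filter they were 1351 and 3575 of 24663 in stromal-like cells and 1394 and 3448 of 24098 in myoid-like cells. In other somatic cells they were 1583 and 4455 of 25901. At the looser threshold they were 1198 and 3376 of 15448 in stromal-like cells and 2010 and 4449 of 17258 in other somatic cells. The cause of these shifts was not tested.

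With the replicate block, 6 members were called in stromal-like cells, 4 in other somatic cells, 7 in Sertoli cells and 2 in macrophages. Over all genes, 803 were called higher and 3130 lower of 15448 in stromal-like cells, and 960 and 4023 of 17258 in other somatic cells. In Sertoli cells it was 1619 and 3022 of 14187, and in macrophages 660 and 2032 of 10805. Same-numbered samples correlated by 0.0341 to 0.165 in their deviations, and with 2 pairs this did not show that the numbers pair the samples.

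Leaving out 1 library gave 1 to 7 called members in stromal-like cells (7 without TO replicate 1, 1 without testis replicate 2), 1 to 3 in myoid-like cells (1 without either testis replicate), 1 to 4 in other somatic cells (4 without TO replicate 2, 3 without TO replicate 1), 1 to 3 in Leydig cells (3 without testis replicate 1), 5 to 8 for the stromal-like against myoid-like difference (8 without TO replicate 2) and 0 to 1 for the stromal-like against Leydig difference (0 without either testis replicate). The lone library is then assumed to vary like the other group. The pericyte and endothelial clusters gave no result without Harmony. A type was tested only with at least 10 cells in every library, so this does not show that such cells were absent.

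The log2 fold changes that changed sign were uncalled. In the stromal-like against Leydig difference, RLE size factors gave 0.0065 for Fbn1 and 0.031 for Mgp, and resolution 2 gave -0.055 for Fbn2 and -0.045 for Mfap5. In that difference, leaving out 1 library in turn gave -6.39 to 1.21 for Eln, -0.54 to 0.074 for Fbn1, -0.019 to 0.20 for Fbn2, -0.77 to 0.97 for Mfap5 and -2.52 to 1.93 for Mgp. In Leydig cells Eln was 0.056 with the replicate block, and without 1 library it was -1.31 to 7.71, and Mfap2 was -0.13 to 1.11. In other somatic cells Fbln2 was 0.53 with no upper limits on genes and UMIs, and without 1 library Fbn1 was -0.37 to 0.033 and Fbn2 -0.39 to 0.55. Fbn2 in the pericyte cluster was -0.11 to 0.97. Low counts limit Fbln2 in stromal-like and myoid-like cells and Emilin1 in testis Leydig cells.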
